A study of Mus musculus with 8 samples.

Results

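The 10 genes described here encode RNA-binding proteins that set which exons heart muscle keeps. They were chosen by name, as Rbfox1, Rbfox2, Rbm20, Rbm24, Mbnl1, Mbnl2, Celf1, Celf2, Qk and Ptbp1. All 10 were found among the 54752 Ensembl gene IDs of the count table, and all 10 were among the 14665 genes that passed a filter on low counts. Carm1, the gene deleted in the study, encodes an arginine methyltransferase that acts on histones and on RNA-binding proteins. RNA was sequenced from cardiomyocytes isolated on a Langendorff perfusion system. The 8 libraries formed 4 groups of 2, namely KO and control hearts at 1w and KO and control hearts at 3w, where a heart stands for the cardiomyocytes isolated from it. All mice, controls included, carried floxed Carm1 alleles (Carm1fl/fl). The KO groups had received adeno-associated virus of serotype AAV9 with Cre recombinase, which removes the floxed part of the gene, and the control groups AAV9 with GFP. The labels give injection on postnatal day 1 or 2 for the 1w libraries and on day 3 or 4 for the 3w libraries, KO and control alike. These days run on in order over the libraries of each genotype, so their meaning is uncertain. Taken as written, injection day cannot be told apart from age or, within an age, from replicate number. The hearts were mosaic, with infected beside uninfected cells, no sort is described, and the promoter that drove Cre is not given in the sources used here. Cre was given to floxed mice only, so its own effect and the loss of Carm1 cannot be told apart. Whether both libraries of a pair came from different animals is not stated outright, so the p-values cover the spread between libraries, which may be technical.

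Alternative splicing changes heart muscle around birth without changing which genes are transcribed: the same gene yields a fetal protein before and an adult protein after. The switch is set by proteins that bind short words in the introns beside an exon and favour or block its use. RBFOX proteins bind GCAUG and, in heart and skeletal muscle, favour muscle exons when they bind downstream. RBM20 blocks exons of titin, and its human gene is mutated in dilated cardiomyopathy. RBM24 favours the inclusion of exons of sarcomere genes. MBNL and CELF proteins act against each other on many exons, and in mouse heart CELF protein falls after birth while MBNL protein rises. QKI, encoded by Qk, binds ACUAA words, and PTBP1 binds pyrimidine tracts and blocks many tissue-specific exons. Counts per gene show how much RNA of each regulator was present. They do not show exon use, protein or activity, so nothing is said here about splicing itself.

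Total gene counts per library ran from 20818285 to 53671626, and 40.7 to 47.8% of them came from mitochondrially encoded genes. Levels below are CPM, a gene's count over the scaled library total (trimmed mean of M-values, TMM). Carm1 had, at 1w, 22.2 and 22.4 CPM in KO hearts against 40.5 and 39.0 CPM in control hearts, and at 3w 17.3 and 17.8 CPM in KO hearts against 39.8 and 39.2 CPM in control hearts. Of 12 defining cardiomyocyte genes, 9 were counted in every group, while Tnnc1, Actc1 and Pln were listed at 0 in all 8 libraries. These 3 are strongly expressed in heart muscle, so a 0 in this table does not show that a gene was silent. Y-linked counts (Ddx3y, Eif2s3y, Uty and Kdm5d summed) were 5025 and 4282 in KO hearts against 1 and 0 in control hearts at 1w, while at 3w they were 3 and 2 in KO hearts against 6765 and 4814 in control hearts. A KO effect at 1 age, a change with age in 1 genotype and the difference between KO effects all run along this split and cannot be told apart from it. The mean of both KO effects sets 2 libraries with and 2 without Y-linked counts against the same, and is given beside the effect at each age for this reason.

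In the GRCm38 annotation (GENCODE M21) the 10 genes lie on 9 chromosomes and all are protein coding. Rbfox1 (ENSMUSG00000008658) is on chromosome 16 from 5885355 to 7411526, plus strand, and Rbfox2 (ENSMUSG00000033565) on chromosome 15 from 77078990 to 77307004, minus strand. Rbm20 (ENSMUSG00000043639) is on chromosome 19 from 53677306 to 53867080 and Rbm24 (ENSMUSG00000038132) on chromosome 13 from 46418434 to 46431095, both on the plus strand. Mbnl1 (ENSMUSG00000027763) is on chromosome 3 from 60472830 to 60629750 and Mbnl2 (ENSMUSG00000022139) on chromosome 14 from 120275669 to 120431697, both on the plus strand. Celf1 (ENSMUSG00000005506) is on chromosome 2 from 90940382 to 91019497, plus strand, and Celf2 (ENSMUSG00000002107) on the same chromosome from 6539694 to 7509563, minus strand. Qk (ENSMUSG00000062078) is on chromosome 17 from 10202601 to 10319854, minus strand, and Ptbp1 (ENSMUSG00000006498) on chromosome 10 from 79854427 to 79864771, plus strand. No window of 50 bases was shared between transcripts of 2 members, so the paralogues can be told apart at that length. Of the windows of Ptbp1 transcripts 18.3% also occurred in transcripts of another gene, and 20.7% of its exon bases overlap genes on the opposite strand, E130317F20Rik and Plppr3 among them. For Celf2 these shares were 6.96% and 7.58%, and for the other 8 members at most 0.39% and 0.72%. The strand setting of the counting is not given in the sources used here, so the level of Ptbp1 is the least certain of the 10.

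Promoter sequences were taken from RefSeq (GRCm38.p6), which gave a start for 8 of the 10 members, all but Rbfox2 and Rbm20. Shown are the 250 bases before the start of Rbm24, which fell in KO at both ages, and of Mbnl2 and Ptbp1, the members with the largest rise and the largest fall with age in control, each of which has 1 start in the table. They are given 5′ to 3′ along the gene, with matches to 8 motifs of muscle or general promoters in capitals: chr13:46418050-46418299 for Rbm24, chr14:120275419-120275668 for Mbnl2 and chr10:79854182-79854431 for Ptbp1, all on the plus strand.
Rbm24: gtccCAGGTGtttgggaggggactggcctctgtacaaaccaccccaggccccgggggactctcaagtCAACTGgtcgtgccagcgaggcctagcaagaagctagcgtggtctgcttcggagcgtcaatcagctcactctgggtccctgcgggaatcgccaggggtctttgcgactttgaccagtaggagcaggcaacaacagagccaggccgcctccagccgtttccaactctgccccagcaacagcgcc
Mbnl2: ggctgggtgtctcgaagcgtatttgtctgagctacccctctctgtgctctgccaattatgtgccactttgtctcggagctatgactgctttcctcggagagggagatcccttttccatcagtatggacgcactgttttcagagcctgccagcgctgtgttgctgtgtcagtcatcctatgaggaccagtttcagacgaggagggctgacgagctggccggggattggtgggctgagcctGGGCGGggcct
Ptbp1: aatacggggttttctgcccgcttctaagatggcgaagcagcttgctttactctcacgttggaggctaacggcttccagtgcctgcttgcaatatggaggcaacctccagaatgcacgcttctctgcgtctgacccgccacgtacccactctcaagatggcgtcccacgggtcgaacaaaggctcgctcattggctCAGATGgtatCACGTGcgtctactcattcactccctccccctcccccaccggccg
The capitals in Rbm24 and Ptbp1 are 2 E-boxes each (CANNTG, the word bound by MYOD and related factors), and in Mbnl2 1 GC box (GGGCGG, bound by SP1). Both strands were searched. E-boxes were present in 66.2% and GC boxes in 32.7% of the 32851 promoters of the same length. None of the 3 held any of the other motifs searched. Of all promoters, 12.6% held the muscle M-CAT word (CATTCC) and 9.99% the GATA word (AGATAA). The half-site of ERR receptors (AAGGTCA) was in 4.08%, and the cyclic AMP response element (TGACGTCA) in 1.55%. MEF2 sites were in 0.508% and CArG boxes in 1.47%. These matches describe the letters and not binding. CpG dinucleotides numbered 12 in the window of Rbm24, 10 in that of Mbnl2 and 17 in that of Ptbp1, against a median of 6 over all promoters.

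Per length of exon, Rbm24 had the highest level of the 10 in every group. In CPM per kilobase, Rbm24 stood at 58.1 ± 0.40 in KO hearts against 78.8 ± 2.0 in control hearts at 1w, and at 67.9 ± 2.3 in KO hearts against 87.5 ± 0.096 in control hearts at 3w (SD, n = 2 each). Rbm20 followed at 30.9 to 39.3 and Qk at 25.2 to 36.8 over the 4 group means. Celf1, Rbfox2 and Mbnl2 formed a middle tier between 10.8 and 16.9. In KO at 3w the libraries of Rbfox2 (13.5 and 13.3) and Mbnl2 (13.1 and 13.5) overlapped, as did those of Ptbp1 (2.08 and 2.82) and Celf2 (2.22 and 2.19) in control at 1w, so these neighbours in the order did not differ beyond their spread. Rbfox1 lay at 5.01 to 9.31, Mbnl1 at 4.10 to 5.39, Celf2 at 1.86 to 2.40 and Ptbp1 at 0.932 to 4.20. Lengths are those of all annotated exons joined, which understates genes that use few of them.

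**Figure D1:**
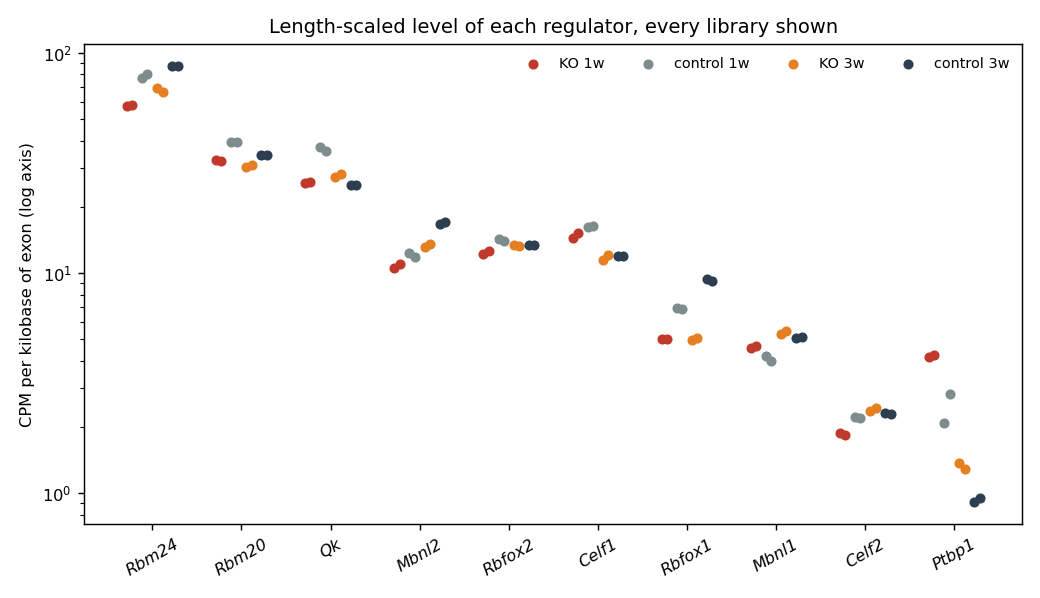
CPM per kilobase of exon (log axis) for each of the 10 genes, with 1 point per library and 2 libraries in each of the 4 groups, and the genes in the order of control at 3w. Rbm24 is highest in every group, and Ptbp1 is lowest at 3w with group means of 1.33 in KO and 0.932 in control.

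At 1w, 8 of the 10 regulators were lower and 2 were higher in KO than in control. Over all genes tested 20.0% were called lower, 23.0% higher and 43.0% in either direction, at an adjusted p under 0.05 in edgeR's quasi-likelihood test. The members' median log2 fold change was -0.22, against 0.02 over all genes, and their median size of change, 0.26, was near the 0.22 of all genes. At 3w 4 members were lower and 2 higher, with 24.8% of all genes called lower, 24.4% higher and 49.2% in either direction. There the median size of change was 0.15 for the members and 0.29 for all genes. For the mean of both ages all 10 were called, 8 lower and 2 higher, with 25.3% of all genes lower, 27.5% higher and 52.8% in either direction. An additive fit of age and KO, which counts disagreement between the ages as spread, called 4 lower and 2 higher. Rbfox2, Celf1, Celf2 and Qk were no longer called there, with adjusted p from 0.15 to 0.295. Values after ± are standard errors (SE) for log2 fold changes. In bulk libraries fewer cells of a type and less RNA per cell cannot be told apart.

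**Figure D2:**
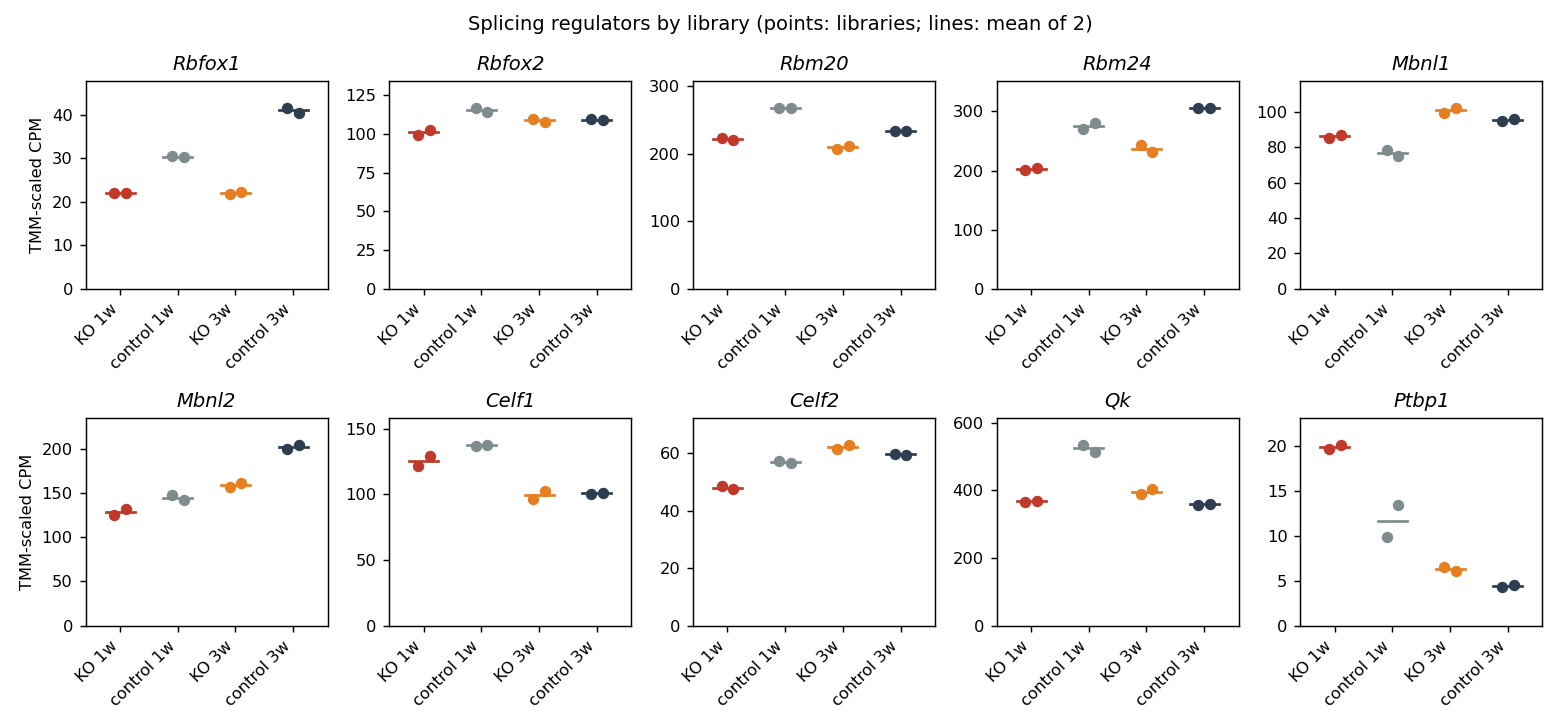
TMM-scaled CPM of the 10 genes in each of the 8 libraries, with axes starting at 0 and a line at the mean of each pair. Rbfox1 is at 21.8 to 22.2 CPM in all 4 KO libraries and at 30.2 to 41.5 CPM in the control libraries.

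Rbfox1, the RBFOX gene with the more restricted expression in muscle and neurons, had the largest fall in KO at 3w and over both ages. Rbfox1 had 22.0 and 22.1 CPM in KO hearts at 1w, against 30.5 and 30.2 CPM in control hearts. It had 21.8 and 22.2 CPM in KO hearts at 3w, against 41.5 and 40.4 CPM in control hearts. All 4 KO libraries lay between 21.8 and 22.2 CPM, below all 4 control libraries. On the log2 scale KO stood to control at -0.46 ± 0.057 (SE) at 1w (edgeR adjusted p = 7.68e-10), -0.90 ± 0.057 at 3w (edgeR adjusted p = 3.34e-21) and -0.68 ± 0.041 for the mean of both ages (edgeR adjusted p = 1.61e-22). Between the ages the KO effect differed by -0.44 ± 0.081 (3w minus 1w, log2) (edgeR adjusted p = 1.22e-05). The change of Rbfox1 from 1w to 3w was -0.00 ± 0.061 in KO (edgeR adjusted p = 0.996, 95% interval -0.12 to 0.12) and 0.44 ± 0.054 in control (edgeR adjusted p = 1.19e-10), and the difference between these is the same test as above.

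Rbfox2, its broadly expressed paralogue, moved less. It had, at 1w, 99.6 and 103 CPM in KO hearts against 117 and 114 CPM in control hearts, and at 3w 109.8 and 108 CPM in KO hearts against 109.6 and 109 CPM in control hearts. The groups were apart at 1w (-0.19 ± 0.037, edgeR adjusted p = 1.67e-05) and overlapped at 3w (-0.01 ± 0.037, 95% interval -0.08 to 0.07, edgeR adjusted p = 0.914). The difference between the ages was 0.19 ± 0.052 (edgeR adjusted p = 0.00342), and its adjusted p was 0.053 without KO at 1w replicate 1. The mean of the KO effects was -0.10 ± 0.026 (edgeR adjusted p = 0.00113). With age Rbfox2 rose by 0.11 ± 0.037 in KO (edgeR adjusted p = 0.00944), a call lost without KO at 1w replicate 1 (adjusted p = 0.147), and stood at -0.08 ± 0.037 in control (edgeR adjusted p = 0.0505). Per length, Rbfox1 stood to Rbfox2 as 0.403 ± 0.0087 in KO hearts against 0.486 ± 0.0032 in control hearts at 1w, and as 0.375 ± 0.0093 in KO hearts against 0.693 ± 0.0096 in control hearts at 3w (SD, n = 2 each). The balance between the paralogues was thus lower in both KO libraries than in both control libraries at each age.

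Rbm20 and Rbm24, a pair of heart and muscle regulators of sarcomere transcripts, were lower in KO at both ages. Rbm24 had, at 1w, 202 and 204 CPM in KO hearts against 270.0 and 280.0 CPM in control hearts, and at 3w 243 and 231 CPM in KO hearts against 306 and 305 CPM in control hearts. The log2 fold changes were -0.44 ± 0.033 at 1w (edgeR adjusted p = 5.6e-18), -0.37 ± 0.033 at 3w (edgeR adjusted p = 5.96e-15) and -0.40 ± 0.023 for the mean (edgeR adjusted p = 2.48e-23). The ages did not differ past the threshold for Rbm24 (0.08 ± 0.046, 95% interval -0.02 to 0.17, edgeR adjusted p = 0.216). Rbm20 had, at 1w, 223 and 219 CPM in KO hearts against 267 and 267 CPM in control hearts, and at 3w 207 and 212 CPM in KO hearts against 234 and 233 CPM in control hearts. Its changes were -0.27 ± 0.032 at 1w (edgeR adjusted p = 1.62e-10), -0.16 ± 0.033 at 3w (edgeR adjusted p = 3.92e-05) and -0.21 ± 0.023 for the mean (edgeR adjusted p = 2.82e-12). For Rbfox1, Rbm20 and Rbm24, all 4 KO libraries were below all 4 control libraries, a pattern that 4.66% of all genes shared, and no member had all 4 KO libraries above all 4 control libraries, as 5.48% of genes did. With age Rbm24 rose, by 0.23 ± 0.033 in KO and 0.15 ± 0.033 in control, and Rbm20 fell, by 0.08 on the log2 scale in KO and 0.19 in control. The fall of Rbm20 in KO (edgeR adjusted p = 0.0283) and the difference between its KO effects (0.11 ± 0.046, edgeR adjusted p = 0.0469) were the least firm calls. Leaving out each of the 8 libraries in turn ended the first in 6 cases and the second in 7.

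The MBNL paralogues parted in KO. Mbnl2 had, at 1w, 126 and 133 CPM in KO hearts against 148 and 142 CPM in control hearts, and at 3w 157 and 162 CPM in KO hearts against 199.9 and 205 CPM in control hearts. It was lower in KO, with log2 fold changes of -0.17 ± 0.035 at 1w (edgeR adjusted p = 9.13e-05) and -0.34 ± 0.035 at 3w (edgeR adjusted p = 7.07e-13), with no overlap at either age. Mbnl1 had, at 1w, 85.2 and 87.3 CPM in KO hearts against 78.5 and 75.0 CPM in control hearts, and at 3w 99.6 and 102 CPM in KO hearts against 95.0 and 96.3 CPM in control hearts. It was higher in KO at 1w (0.17 ± 0.040, edgeR adjusted p = 0.000319), and at 3w the difference of 0.08 ± 0.039 missed the threshold (95% interval -0.00 to 0.16, edgeR adjusted p = 0.0922) although the libraries did not overlap. For the mean of both ages Mbnl2 stood at -0.25 ± 0.025 (edgeR adjusted p = 1.46e-13) and Mbnl1 at 0.12 ± 0.028 (edgeR adjusted p = 0.000133). Per length, Mbnl1 stood to Mbnl2 as 0.428 ± 0.0082 in KO hearts against 0.339 ± 0.0012 in control hearts at 1w, and as 0.405 ± 0.0015 in KO hearts against 0.303 ± 0.0027 in control hearts at 3w (SD, n = 2 each). Both genes rose with age in both genotypes: Mbnl2 by 0.31 ± 0.035 in KO (edgeR adjusted p = 1.83e-11) and 0.48 ± 0.035 in control (edgeR adjusted p = 2.86e-19), and Mbnl1 by 0.23 ± 0.039 in KO (edgeR adjusted p = 5.93e-07) and 0.32 ± 0.040 in control (edgeR adjusted p = 1.61e-10). The rise of Mbnl2 was smaller in KO, with a difference of -0.18 ± 0.050 (edgeR adjusted p = 0.00351), with an adjusted p of 0.0599 without KO at 1w replicate 2 and 0.0566 without KO at 3w replicate 1. That of Mbnl1 did not differ past the threshold (-0.09 ± 0.056, 95% interval -0.20 to 0.02, edgeR adjusted p = 0.205).

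Of the 2 CELF members, Celf1 fell with age and differed little between KO and control, while Celf2 did not fall with age. Celf1 had, at 1w, 122 and 129 CPM in KO hearts against 137 and 138 CPM in control hearts, and at 3w 96.9 and 103 CPM in KO hearts against 101 and 101 CPM in control hearts. The change from 1w to 3w was -0.33 ± 0.038 in KO (edgeR adjusted p = 1.18e-11) and -0.45 ± 0.038 in control (edgeR adjusted p = 1.21e-16). KO against control was -0.13 ± 0.037 at 1w (edgeR adjusted p = 0.00211), a call that rested on KO replicate 1, without which it was -0.09 with an adjusted p of 0.15. At 3w it was -0.02 ± 0.039 (95% interval -0.09 to 0.06, edgeR adjusted p = 0.753). The difference between the KO effects on Celf1, 0.12 ± 0.053, was not called (edgeR adjusted p = 0.0785), but was without KO at 3w replicate 1 (0.16, adjusted p = 0.0452). The mean of the KO effects was -0.08 ± 0.027 for Celf1 (edgeR adjusted p = 0.0144) and -0.09 ± 0.031 for Celf2 (edgeR adjusted p = 0.00893). The first was lost without KO replicate 1 at 1w (adjusted p = 0.149) or at 3w (adjusted p = 0.0536), and the second without KO at 1w replicate 2 (adjusted p = 0.051). Celf2 had, at 1w, 48.6 and 47.5 CPM in KO hearts against 57.5 and 56.8 CPM in control hearts, and at 3w 61.5 and 63.0 CPM in KO hearts against 59.9 and 59.4 CPM in control hearts. It was lower in KO at 1w (-0.25 ± 0.044, edgeR adjusted p = 4.08e-06) and not called at 3w (0.06 ± 0.044, 95% interval -0.03 to 0.15, edgeR adjusted p = 0.252), and the ages differed by 0.31 ± 0.062 (edgeR adjusted p = 4.65e-05). The rise of Celf2 with age was 0.37 ± 0.044 in KO (edgeR adjusted p = 3.12e-11), against 0.06 ± 0.044 in control (95% interval -0.02 to 0.15, edgeR adjusted p = 0.193). Per length, Mbnl2 stood to Celf1 as 0.726 ± 0.0042 in KO hearts against 0.743 ± 0.024 in control hearts at 1w (SD, n = 2 each). There the libraries of KO lay between or below those of control. At 3w this ratio was 1.13 ± 0.020 in KO and 1.41 ± 0.023 in control, and the libraries were apart. The ratio of Mbnl1 to Celf1 went the other way and was higher in KO at both ages, with no overlap. It was 0.310 ± 0.0077 in KO against 0.252 ± 0.0090 in control at 1w. At 3w it was 0.457 ± 0.0097 in KO against 0.428 ± 0.0031 in control.

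Qk was the member whose KO effect turned round between the ages. Qk had, at 1w, 367 and 368 CPM in KO hearts against 535 and 513 CPM in control hearts, and at 3w 390.2 and 403 CPM in KO hearts against 358 and 358 CPM in control hearts. Control at 1w stood above the other 3 groups, whose 6 libraries lay between 358 and 403 CPM. KO against control was -0.51 ± 0.031 at 1w (edgeR adjusted p = 3.13e-22) and 0.15 ± 0.031 at 3w (edgeR adjusted p = 5.86e-05). The difference between these was 0.66 ± 0.044 (edgeR adjusted p = 4.67e-20), the largest of the 10 members. With age Qk rose by 0.11 ± 0.031 in KO (edgeR adjusted p = 0.00124), a call lost without the filter on low counts (adjusted p = 0.054), and fell by 0.55 on the log2 scale in control (edgeR adjusted p = 1.48e-24). The mean of the KO effects was -0.18 ± 0.022, which averages effects of opposite sign and describes neither age. Among the members Qk alone was called at both ages in opposite directions, as 6.24% of all genes were. Rbfox1, Rbm20, Rbm24 and Mbnl2 were called lower at both ages (9.87% of genes) and Ptbp1 higher at both (10.8%).

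**Figure D3:**
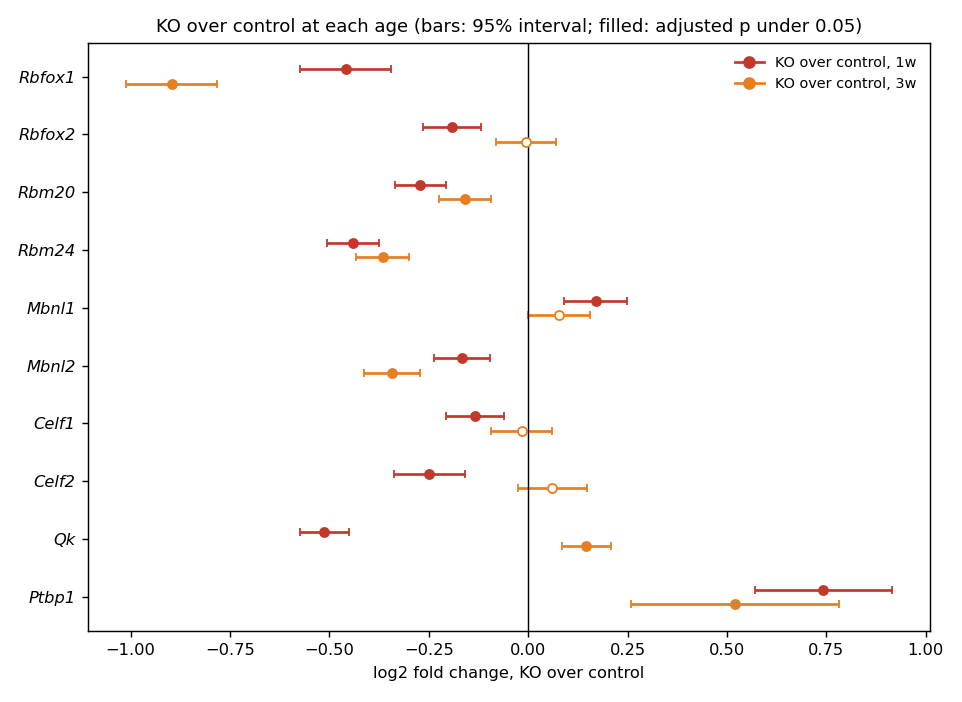
Log2 fold change of KO over control for each of the 10 genes, with 1w drawn above 3w, bars for the 95% interval and filled points for an adjusted p under 0.05. Rbfox1, Rbm20, Rbm24 and Mbnl2 lie left of 0 at both ages and Ptbp1 right of 0, while Qk is at -0.51 at 1w and 0.15 at 3w.

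Ptbp1 had the largest rise in KO, the largest change with age and the lowest counts of the 10. It was counted 876 and 761 times in KO hearts against 235 and 490 times in control hearts at 1w, and 185 and 175 times in KO hearts against 181 and 128 times in control hearts at 3w. This gave 19.7 and 20.1 CPM in KO hearts against 9.86 and 13.4 CPM in control hearts at 1w, and 6.53 and 6.10 CPM in KO hearts against 4.31 and 4.52 CPM in control hearts at 3w. Ptbp1 was higher in KO by 0.74 ± 0.085 at 1w (edgeR adjusted p = 5.22e-10), by 0.52 ± 0.13 at 3w (edgeR adjusted p = 0.000768) and by 0.63 ± 0.078 for the mean (edgeR adjusted p = 1.87e-09). The libraries did not overlap at either age, though relative to its mean the control pair at 1w was wider than any other pair of the 10 members. The effects at the 2 ages differed by -0.22 ± 0.16 (95% interval -0.54 to 0.09, edgeR adjusted p = 0.29). The value rested on the control pair at 1w. Without replicate 1 of that pair it was -0.05 (adjusted p = 0.835), and without replicate 2 it was -0.50 and was called (adjusted p = 0.0115). With age Ptbp1 fell by 1.66 on the log2 scale in KO (edgeR adjusted p = 2.98e-20) and by 1.43 in control (edgeR adjusted p = 8.75e-16), the largest age changes of the 10.

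Markers of other cell types also differed between the 4 groups, some of them in the order of Ptbp1 and others not. The 12 fibroblast markers summed at 1w to 2541 and 2508 CPM in KO hearts against 1376 and 1382 CPM in control hearts, and at 3w to 871 and 886 CPM in KO hearts against 418 and 423 CPM in control hearts, with Tcf21 listed at 0 throughout. This is the same order of groups as for Ptbp1, and the endothelial sums given below have it too. All 11 fibroblast markers tested were called higher in KO at each age. The 12 endothelial markers summed at 1w to 1474 and 1468 CPM in KO hearts against 1234 and 1235 CPM in control hearts, and at 3w to 520.0 and 543 CPM in KO hearts against 482 and 474 CPM in control hearts. Of these 12, 10 were called higher and 1 lower in KO at 1w, and 9 higher and 2 lower at 3w. The 12 myeloid markers summed at 1w to 164 and 157 CPM in KO hearts against 49.7 and 50.7 CPM in control hearts, and at 3w to 136 and 138 CPM in KO hearts against 89.3 and 88.6 CPM in control hearts. The 10 smooth muscle and pericyte markers averaged, as a sum, 2324 CPM in KO hearts against 1812 CPM in control hearts at 1w, and 2035 CPM in KO hearts against 1140.4 CPM in control hearts at 3w. Of these 10, 6 were called higher and 3 lower in KO at 1w, and all 10 higher at 3w. The part of these cell types in the level of Ptbp1 was not tested. On the muscle side, the 12 cardiomyocyte markers summed at 1w to 39704 and 39380 CPM in KO hearts against 42164 and 43115 CPM in control hearts, and at 3w to 66023 and 65196 CPM in KO hearts against 80427 and 84470 CPM in control hearts, beside the lower Rbfox1, Rbm20 and Rbm24 in KO. Of the 9 tested, 7 were lower and 1 higher in KO at 1w, and 8 were lower at 3w. Their part in the levels of the members was not tested either. The 8 atrial markers averaged, as a sum, 648 CPM in KO hearts against 72.5 CPM in control hearts at 1w, and 609 CPM in KO hearts against 180.4 CPM in control hearts at 3w. All 8 were higher in KO at 1w, but at 3w 3 were higher and 5 lower (median log2 fold change -1.24), and the sum at 3w was mostly Nppa, a natriuretic peptide gene also expressed in stressed ventricles, with 589.9 and 577 CPM in KO hearts against 103.6 and 101 CPM in control hearts. The 8 epicardial markers averaged, as a sum, 61.2 CPM in KO hearts against 34.3 CPM in control hearts at 1w, and 16.2 CPM in KO hearts against 24.1 CPM in control hearts at 3w. Erythroid markers averaged, as a sum, 26.8 CPM in KO hearts against 66.5 CPM in control hearts at 1w, and 159 CPM in KO hearts against 127 CPM in control hearts at 3w, and neuronal and glial markers at most 16.4 CPM in any group.

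From 1w to 3w, 6 of the 10 members rose and 3 fell in KO, where 33.2% of all genes rose and 34.6% fell (67.9% called). In control 4 rose and 4 fell, where 34.9% of genes rose and 36.0% fell (70.8% called). The members' median size of change with age was 0.23 in KO and 0.38 in control, below the 0.47 and 0.55 of all genes. In both genotypes Mbnl1, Mbnl2 and Rbm24 rose and Celf1, Rbm20 and Ptbp1 fell. The genotypes differed past the threshold for 6 members: 4 with a higher KO effect at 3w (Rbfox2, Rbm20, Celf2 and Qk; 17.6% of genes) and 2 with a lower one (Rbfox1 and Mbnl2; 17.9% of genes; 35.6% in either direction). These difference tests run along the split by Y-linked counts, as said above.

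**Figure D4:**
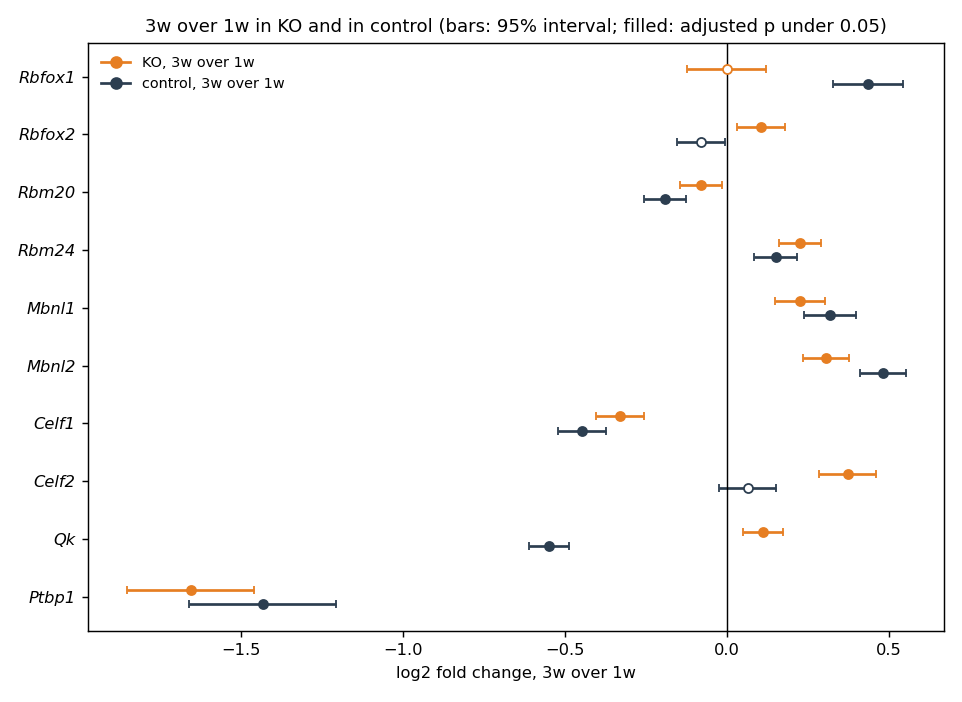
Log2 fold change of 3w over 1w for each of the 10 genes, with KO drawn above control, bars for the 95% interval and filled points for an adjusted p under 0.05. Rbfox1 is at -0.00 in KO and 0.44 in control and Qk at 0.11 in KO and -0.55 in control, while Ptbp1 lies below -1.4 in both.

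Relatives of the 10 genes were called in both directions in KO. Of 9 genes of the same families, 7 were tested, and Rbfox3 and Celf6 had at most 4 counts in any library. Among the others Rbm38, the paralogue of Rbm24, had, at 1w, 32.7 and 32.1 CPM in KO hearts against 31.8 and 32.4 CPM in control hearts, and at 3w 64.3 and 59.8 CPM in KO hearts against 79.6 and 82.6 CPM in control hearts. It was lower in KO at 3w (-0.39 ± 0.044, edgeR adjusted p = 3.72e-11), and the ages differed by -0.40 ± 0.068 (edgeR adjusted p = 2.46e-06). The paralogues of Ptbp1 moved apart in KO: Ptbp2 was at -0.23 ± 0.050 (edgeR adjusted p = 6.2e-05) and Ptbp3 at 0.30 ± 0.045 (edgeR adjusted p = 8.22e-08) for the mean of both ages. Ptbp2, whose transcript PTBP1 is known to push toward decay, had, at 1w, 20.9 and 19.2 CPM in KO hearts against 25.5 and 24.0 CPM in control hearts, and at 3w 15.5 and 16.0 CPM in KO hearts against 16.8 and 18.7 CPM in control hearts. It was called lower in KO at 1w (-0.30 ± 0.065, edgeR adjusted p = 0.000126) and not called at 3w. With age both Ptbp1 and Ptbp2 had lower CPM at 3w in both genotypes, and a part of Ptbp1 in the level of Ptbp2 was not tested. Mbnl3, the third MBNL gene, had at most 76 counts in a library and fell with age by 2.56 on the log2 scale in KO and by 2.61 in control.

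Genes of the SR and hnRNP families mostly fell with age. All 11 SR proteins tested, which bind exons and favour their use, fell from 1w to 3w in KO (median -0.84) and in control (median -0.70), against medians of -0.02 and -0.03 over all genes. Srsf3 had, at 1w, 77.7 and 74.8 CPM in KO hearts against 77.3 and 77.8 CPM in control hearts, and at 3w 36.1 and 36.8 CPM in KO hearts against 31.7 and 33.0 CPM in control hearts. Of 21 hnRNP genes, many of which block exon use, 18 fell with age in KO and 17 in control. Over all genes 34.6% fell with age in KO and 36.0% in control. In the same comparison fibroblast markers had a median of -1.47 in KO and -1.92 in control and endothelial markers -1.35 in KO and -1.41 in control, while all 9 cardiomyocyte markers tested rose (medians 0.67 in KO and 0.72 in control). The part of these markers in the levels of the splicing factors was not tested. With KO, SR proteins were called in 3 of 11 cases at each age, and hnRNP genes in 9 of 21 at 1w (4 higher, 5 lower) and in 10 of 21 at 3w, all lower. Of all genes 43.0% were called at 1w (23.0% higher, 20.0% lower) and 49.2% at 3w (24.4% higher, 24.8% lower). Counted in either direction, the hnRNP calls were near these shares and those of SR proteins below them. By direction the hnRNP calls at 3w were not near them, as 10 of 21 were lower against 24.8% of all genes. The same shares apply to the KO counts of the lists that follow. The splicing kinases Clk1 to Clk4 and Srpk1 to Srpk3, which phosphorylate SR proteins, were higher in 3 and lower in 1 of 7 cases in KO at 1w, and lower in 4 at 3w. Clk4 had, at 1w, 17.3 and 16.3 CPM in KO hearts against 16.7 and 16.2 CPM in control hearts, and at 3w 16.7 and 19.2 CPM in KO hearts against 26.3 and 25.3 CPM in control hearts (-0.53 ± 0.069 at 3w, edgeR adjusted p = 1.54e-09). Of 35 core spliceosome genes, 12 were higher and 2 lower in KO at 1w, where 23.0% of all genes were higher and 20.0% lower. At 3w 2 were higher and 15 lower, where 24.4% of all genes were higher and 24.8% lower. Those lower at 3w included Sf3b1 of the U2 particle (-0.46 ± 0.036, edgeR adjusted p = 1.91e-17). The difference between the ages was called in 18 of the 35 core genes, lower in each case, against 17.9% of all genes called lower and 35.6% in either direction. Of 20 tested genes for other tissue-regulated splicing factors, 4 were higher and 5 lower in KO at 1w, and 2 higher and 9 lower at 3w, with Matr3 at -0.38 ± 0.039 at 1w. Of 4 splicing factors known as CARM1 substrates, 2 were higher in KO at 1w, Snrpb among them (0.12 ± 0.045), and at 3w Sf3b4 was higher and Snrpb and Snrpc were lower.

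**Figure D5:**
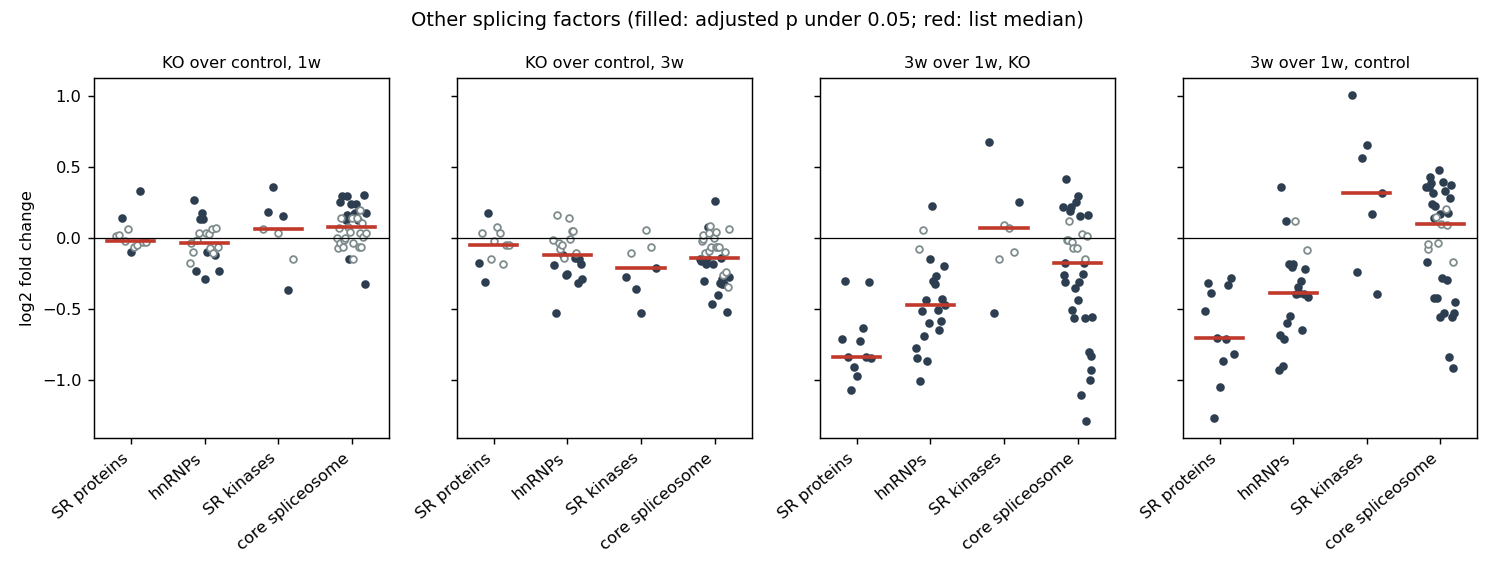
Log2 fold change of each tested gene of 4 lists, in 4 panels for KO over control at 1w and at 3w and for 3w over 1w in KO and in control, with filled points for an adjusted p under 0.05 and red bars at list medians. All 11 SR proteins lie below 0 in both age panels, with medians of -0.84 in KO and -0.70 in control.

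Transcripts known to be spliced by these regulators were counted as whole genes. Of 18 heart transcripts on which RBM20 acts, 12 were lower and 1 higher in KO at 1w, and 12 were lower and 4 higher at 3w. Over all genes 20.0% were called lower and 23.0% higher at 1w, and 24.8% lower and 24.4% higher at 3w. The median log2 fold change of the 18 was -0.18 at 1w and -0.24 at 3w, against 0.02 and 0.01 over all genes. The 9 cardiomyocyte markers tested had medians of -0.23 at 1w and -0.29 at 3w, and their part in the levels of this list was not tested. The marker list and this list share genes, Ttn and Ryr2 among them, so their medians are not independent. Trdn, the triadin gene of the calcium release unit, had, at 1w, 299 and 296 CPM in KO hearts against 432 and 417 CPM in control hearts, and at 3w 443 and 449.97 CPM in KO hearts against 713 and 744 CPM in control hearts. Camk2d, a calcium-dependent kinase with isoforms set by RBM20, had, at 1w, 142 and 142 CPM in KO hearts against 206 and 198 CPM in control hearts, and at 3w 172 and 177 CPM in KO hearts against 165 and 162 CPM in control hearts, so that its order turned round as that of Qk did (difference of the KO effects 0.61 ± 0.048, edgeR adjusted p = 1.29e-16). Ttn itself rose with age by 0.99 ± 0.025 in KO and 1.20 ± 0.025 in control, and 15 of the 18 rose in KO and 14 in control. Over all genes 33.2% rose with age in KO and 34.9% in control. All 9 cardiomyocyte markers tested, the shared Ttn and Ryr2 among them, also rose in both genotypes, and their part in this rise was not tested. Of 20 muscle transcripts spliced by MBNL, CELF or RBFOX proteins, 12 were lower and 4 higher in KO at 1w, and 11 lower and 5 higher at 3w. The shares over all genes are those given above for KO. The median log2 fold change of these 20 was -0.15 at 1w and -0.11 at 3w, beside the lower cardiomyocyte markers, whose part here was not tested. The largest rise at 3w was in Atp2a1, a calcium pump of fast skeletal muscle, with 176 and 164 counts in KO and 14 and 12 in control (3.995 ± 0.23, edgeR adjusted p = 5.04e-23). Tnnt3, a troponin T of fast skeletal muscle, had 44 and 39 counts in KO and 5 and 2 in control at 3w (3.82 ± 0.45, edgeR adjusted p = 9.42e-11). Other skeletal muscle genes of the list went the other way. Clcn1, a chloride channel gene, had 7 and 10 counts in KO and 110 and 61 in control at 3w (-3.00 ± 0.31, edgeR adjusted p = 7.12e-13). Cacna1s, a calcium channel gene, had 25 and 29 counts in KO and 110 and 67 in control at 3w (-1.40 ± 0.24, edgeR adjusted p = 1.51e-06). Genes of this list have many functions, and their levels do not show which isoform was made.

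By Pearson correlation of log2 CPM over the 8 libraries, which share 4 groups and therefore lie in pairs, the genes most like Rbfox1 were Tmem164 (r = 0.994) and Arhgef3 (r = 0.993), and those most like Rbm24 were Blvrb (r = 0.993) and Eapp (r = 0.992). Mbnl2 was closest to Fdft1 (r = 0.998) and Clpx (r = 0.997), and Ptbp1 to Megf6 (r = 0.994) and Rgs3 (r = 0.993). The nearest genes to Qk, Pja2 (r = 0.982) and Slc4a7 (r = 0.980), and to Rbfox2, Pde3a (r = 0.985) and Pdp1 (r = 0.975), were less alike. Rbm20 was nearest to Bcl2l11 and Appl2, Mbnl1 to Csf1 and Stip1, Celf1 to Tmem123 and Maged1, and Celf2 to Pgap2 among others, each with r between 0.987 and 0.993. These values are a description only.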

How the data were processed

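The deposited data were 1 table of gene counts for 8 libraries. The submitters' processing notes name FastQC, MultiQC, HISAT2, mm10, featureCounts and DESeq2 as what the authors used. No source used here gives their versions, the strand setting or the annotation. SMART and Nextera XT kits were used, per the labels' protocols. Whole numbers fill the deposited table, and they were taken as raw counts. GENCODE M21 (GRCm38) named 54723 of the 54752 IDs, left 29 unnamed and gave exon lengths.

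Genes were kept by edgeR's filterByExpr (minimum count 10, minimum total 15), and scaled by TMM (factors 0.759 to 1.23). Contrasts of the 4 groups came from 1 robust quasi-likelihood model in edgeR (residual degrees of freedom: 4), with Benjamini-Hochberg adjustment over all 14665 genes and a threshold of 0.05. The SE comes from the F statistic, and intervals are at 95%. The mean of both ages averages the 2 KO contrasts of that fit. Correlations are of log2 CPM (prior count 2), over genes averaging 10 CPM or more.

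Named beside the members are Carm1 and genes by rule: up to 4 called genes of a list with the largest change in a comparison, or 2 where none was called, and the 2 genes most like each member. Fewer are printed than the rule allows, and some genes it names are not reported here. The members and lists were chosen with earlier results of these data known. Alternatives were DESeq2's size factors, nuclear genes only for scaling, no filter, DESeq2's test, the replicate number as a block, an additive fit, and leaving out each library. The fit was tested on simulated counts before use. Libraries of a group differed by more than sampling noise (chi-square per gene 1.45 to 6.40) and were kept apart. Sequences are RefSeq's. Versions were R 4.3.3, edgeR 4.0.16 and DESeq2 1.42.0.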

Additional observations from a re-analysis of the deposited data

Results flagged for a closer look

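The KO effect differed between 3w and 1w, by an interaction contrast in edgeR with Benjamini-Hochberg adjustment, for 6 of the 10 members, where 35.6% of all genes were called. The difference on the log2 scale was 0.66 for Qk, -0.44 for Rbfox1, 0.31 for Celf2, 0.19 for Rbfox2, -0.18 for Mbnl2 and 0.11 for Rbm20. The call of Rbm20 was lost in 7 of the 8 fits that each left out 1 library and with the replicate block (adjusted p = 0.0682). For Rbfox1 and Mbnl2 the KO effect was negative at both ages and larger at 3w, for Rbm20 it was negative at both and smaller at 3w, and for Qk it had opposite signs. Presence of Y-linked transcripts divides the libraries along the same contrast, so these differences and that split cannot be told apart.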

How the results depend on the processing

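Each of the 60 member changes kept its sign wherever it was called, under all alternatives tried. Scaling on nuclear genes changed no call. DESeq2's size factors and DESeq2's test each ended 2 calls, both of Rbm20 (the fall with age in KO and the difference between KO effects). No filter on low counts ended 3: the age changes in KO of Rbfox2 and Qk and the difference between the KO effects of Rbm20. DESeq2's test called 4043 genes in place of 6305 for KO against control at 1w and 3351 in place of 5215 for the difference between KO effects. The additive fit called 4505 genes in place of 7747 and 4 members lower in place of 8. Leaving out each library gave 2 to 4 members higher and 1 to 3 lower for the difference between KO effects. Replicate numbers were no sign of pairing (correlation of deviations from -0.0222 to 0.0083 between groups), and the replicate block ended 1 call, that of Rbm20 for the difference between KO effects (0.11 in both fits, adjusted p = 0.0682 with the block). With 2 libraries a group, small changes of Ptbp1, which had 128 to 876 counts, are the least precise.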
